A study of Homo sapiens with 8 samples.

Results

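COL4A4, RPRM, ACADL, CD1D, CD55, ADORA1, CA8, ENC1, FAT3 and NRP2 are 10 genes that the study's text names as candidate targets of the histone methyltransferase EZH2. They were taken from 19618 annotated protein-coding genes by these names, and all 10 carried a called promoter peak in every library, as did 11407 coding genes in all. Open chromatin was profiled by ATAC-seq, in which the Tn5 transposase cuts accessible DNA, in lines of HEK293T, a human embryonic kidney cell line. The 4 stable lines had received EZH2 by lentivirus, as the WT protein, with Y641F, with A677G, or with the double change H689A/F667I. Each line was represented by 2 libraries. Y641F and A677G are gain-of-function (GOF) alleles and H689A/F667I is a loss-of-function (LOF) allele, in the study's terms. The cells keep their own EZH2 gene, so each mutant protein was added to the endogenous one. The lines were selected with blasticidin toward monoclonal populations, so a difference between lines cannot be told apart from a difference between clones. Where the libraries of a line are called replicates, the study describes them as biological replicates.

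EZH2 is the catalytic subunit of Polycomb repressive complex PRC2, which methylates histone H3 at lysine K27, a mark of silent developmental genes. PRC2 targets often have promoters rich in CpG dinucleotides, and a compact, methylated promoter admits less transposase. A called ATAC-seq peak marks DNA that the enzyme could reach, and it does not measure the histone mark or transcription. All 10 genes belong to the 108 targets that the study lists as shared by both GOF lines. That list was chosen partly on lower accessibility in these same libraries, so a lower value in a GOF line is no independent evidence for these genes.

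The 10 genes lie on 5 chromosomes, with RPRM, ACADL, NRP2 and COL4A4 on chromosome 2, CD1D, ADORA1 and CD55 on chromosome 1, and ENC1, CA8 and FAT3 on chromosomes 5, 8 and 11. They range from RPRM, 1425 bp long, to FAT3, 671656 bp long. RefSeq promoter windows on GRCh38.p14, running from 250 bases before to 50 bases after the start site, were matched for 7 of the 10 genes. CA8, ENC1 and FAT3 were not matched. The 4 stretches printed here are upstream sequence that the peaks of this report cover, cross in part or miss. Each is written 5′ to 3′ on the gene's own strand, and capitals mark the GC box GGGCGG, read on both strands, overlapping matches included.
RPRM, chr2:153478763-153479012, minus strand: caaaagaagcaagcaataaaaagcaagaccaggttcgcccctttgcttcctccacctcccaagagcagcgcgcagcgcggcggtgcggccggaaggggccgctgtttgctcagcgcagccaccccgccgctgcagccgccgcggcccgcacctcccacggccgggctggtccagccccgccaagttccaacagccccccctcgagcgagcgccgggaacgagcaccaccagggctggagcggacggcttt
ACADL, chr2:210225448-210225697, minus strand: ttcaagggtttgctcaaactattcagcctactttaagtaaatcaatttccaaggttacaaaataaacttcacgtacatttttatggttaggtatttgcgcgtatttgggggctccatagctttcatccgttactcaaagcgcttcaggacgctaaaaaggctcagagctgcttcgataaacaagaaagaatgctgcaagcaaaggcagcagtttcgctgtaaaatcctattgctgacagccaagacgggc
CD1D, chr1:158179697-158179946, plus strand: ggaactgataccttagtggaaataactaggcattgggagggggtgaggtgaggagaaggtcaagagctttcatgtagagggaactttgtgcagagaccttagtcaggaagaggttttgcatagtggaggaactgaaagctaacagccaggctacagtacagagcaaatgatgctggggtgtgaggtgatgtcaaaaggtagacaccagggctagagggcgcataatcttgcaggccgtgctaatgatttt
NRP2, chr2:205682251-205682499, plus strand: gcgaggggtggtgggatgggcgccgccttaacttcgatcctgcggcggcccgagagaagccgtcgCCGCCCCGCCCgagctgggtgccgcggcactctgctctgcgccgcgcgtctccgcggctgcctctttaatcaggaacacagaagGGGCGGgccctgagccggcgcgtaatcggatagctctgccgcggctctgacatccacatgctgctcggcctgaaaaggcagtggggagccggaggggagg

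The stretch upstream of RPRM lay wholly inside a peak in 2 WT, 1 Y641F, 1 A677G and 2 H689A/F667I libraries. Upstream of ACADL, a peak spanned the whole 250 bases in 1 WT library alone, and peaks reached into them in 2 WT, 1 Y641F, 2 A677G and 2 H689A/F667I libraries. The NRP2 stretch was covered in all 8 libraries. At the RefSeq start of CD1D no library had a peak, and the peaks of that gene lay farther upstream and downstream. The CD1D window held 2 CpG dinucleotides at 47.3% GC, the lowest CpG number of the 7 matched windows, against 33 CpG at 70% GC for NRP2 and 30 CpG at 68.7% GC for RPRM. ACADL had 15 CpG at 46.7% GC.

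Over the 7 matched windows the median GC content was 65%, beside 65.3% for 9352 matched genes of the tested set. The GC box was found in 3 windows (42.9%), those of CD55, ADORA1 and NRP2, against 71% of the tested windows and 59.2% of 15278 windows of all coding genes. CCAAT, searched like the others on both strands, was found in 1 window (14.3%), that of CD1D, against 38.7% of the tested windows. TATAAA and the E-box CACGTG were found in 0 of the 7 windows, against 5.38% and 10% of the tested windows. These are letter matches in short windows.

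The libraries held 62514 to 64923 peaks in WT, 26350 and 36598 in Y641F, 38016 and 46358 in A677G, with 47840 and 48755 for H689A/F667I, and the read depth behind them is not given in the sources used here. Promoters of kidney regulators were open for 7 of 8 marker genes in every library, while promoters of 6 leukocyte markers had 0 peaks in 7 libraries and 1 peak in Y641F replicate 2. Because peak number differed between lines, each count of genes below is read beside the same count over all 11407 promoters. When every library was reduced to its 26350 strongest peaks, limma called 0 of the 9 genes that could still be tested, in each of the 5 contrasts. Few of the 9824 genes tested there were called at all. Against WT the fits called 83 of them in Y641F, 4 in A677G and 3 in the LOF line, with 0 in each remaining contrast.

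A promoter was defined as the sequence within 1 kb of any coding start site of the gene. Peak width was that of the widest promoter peak, and peak strength was the −log10 p of the strongest promoter peak as MACS2 averaged it over the peak. Summed peak size was width times −log10 p, added over all promoter peaks of the gene. Peak strength was also ranked within each library among the 11407 genes, from percentile 0 for the weakest to 100 for the strongest. Differences in percentile were tested with limma, and p-values were adjusted by Benjamini-Hochberg over all genes.

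For none of the 10 genes did a difference in within-library promoter rank pass the limma test in any mutant line. Limma called 0 of 10 for Y641F against WT, where 94 of 11407 genes (0.824%) were called, 41 lower and 53 higher. It called 0 of 10 for A677G against WT, for H689A/F667I against WT and for the mean of both GOF lines against H689A/F667I, where 0% of all genes passed. Between Y641F and A677G the count was 0 of 10, with 1 gene (0.00877%) called in all. At an unadjusted p under 0.05, the limma test marked 1 of the 10 for Y641F and 1 for A677G against WT, 0 for H689A/F667I against WT, 1 between the GOF lines and 1 for GOF against H689A/F667I. Over all genes the corresponding unadjusted counts were 2164, 1384, 1035, 1298 and 1056. The unadjusted counts among the 10 genes depended on the measure ranked. By peak width they were 4 in Y641F, 3 in A677G and 0 for H689A/F667I against WT, beside 2275, 1534 and 822 of 11407 genes. By summed size they were also 4, 3 and 0, beside 1940, 1317 and 1013. With adjustment, limma called 0 of the 10 in each.

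Unranked values depended on the measure. By summed peak size and by strength most of the 10 promoters lay below WT in the mutant lines, as did most promoters of the genome, whereas by fold most of the 10 overlapped WT. The summed peak size lay below both WT libraries in both Y641F libraries for 10 of 10 genes (96.7% of all promoters), in both A677G libraries for 10 of 10 (91.6%) and in both H689A/F667I libraries for 9 of 10 (83.2%). The exception was CD1D, whose second H689A/F667I library lay between the WT libraries. Peak strength was lower without overlap for 9, 7 and 8 of the 10 genes in Y641F, A677G and H689A/F667I, beside 82.8%, 71.8% and 64.5% of all promoters. Peak width was lower without overlap for 5, 6 and 4 genes, beside 77.1%, 63.6% and 51.4% of all promoters. Whether the 10 genes differ from all promoters in these counts was not tested.

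By fold over background, both libraries lay below WT for 2 of the 10 genes in Y641F, ADORA1 and CA8 (41.4% of all promoters), for 2 in A677G, CD55 and ADORA1 (30.9%), and for 1 in H689A/F667I, ADORA1 (25.5%). ADORA1 was thus the 1 gene below WT by fold in all 3 mutant lines, at 4.4 and 4.18 in WT, 2.71 and 3.17 in Y641F, 3.61 and 3.68 in A677G, with 3.88 and 3.56 for H689A/F667I. CD1D lay above WT in Y641F, at 6.92 and 6.45 against 5.2 and 5.24, and ACADL lay above WT in A677G, at 5.36 and 4.51 against 4.01 and 3.54. FAT3 also lay above WT in A677G. The median fold ratio to WT over the 10 genes was 0.949, 1.02 and 0.995 in the order Y641F, A677G, H689A/F667I, beside 0.947, 0.978 and 0.989 over all promoters.

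The median ratio of summed size to WT over the 10 genes was 0.438 in Y641F, 0.571 in A677G and 0.689 for H689A/F667I, and over all promoters it was 0.466, 0.603 and 0.69. For peak strength the medians were 0.662, 0.752 and 0.789 over the 10 genes and 0.669, 0.765 and 0.809 over all promoters. Without Y641F replicate 1, which had the fewest peaks, the Y641F line still lay below both WT libraries for 10 of 10 genes by summed size, with 97% of all promoters doing so. Within this shared pattern the genes differed from one another, from ADORA1, with a Y641F to WT ratio of 0.143, to ENC1, with 0.737.

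**Figure D1:**
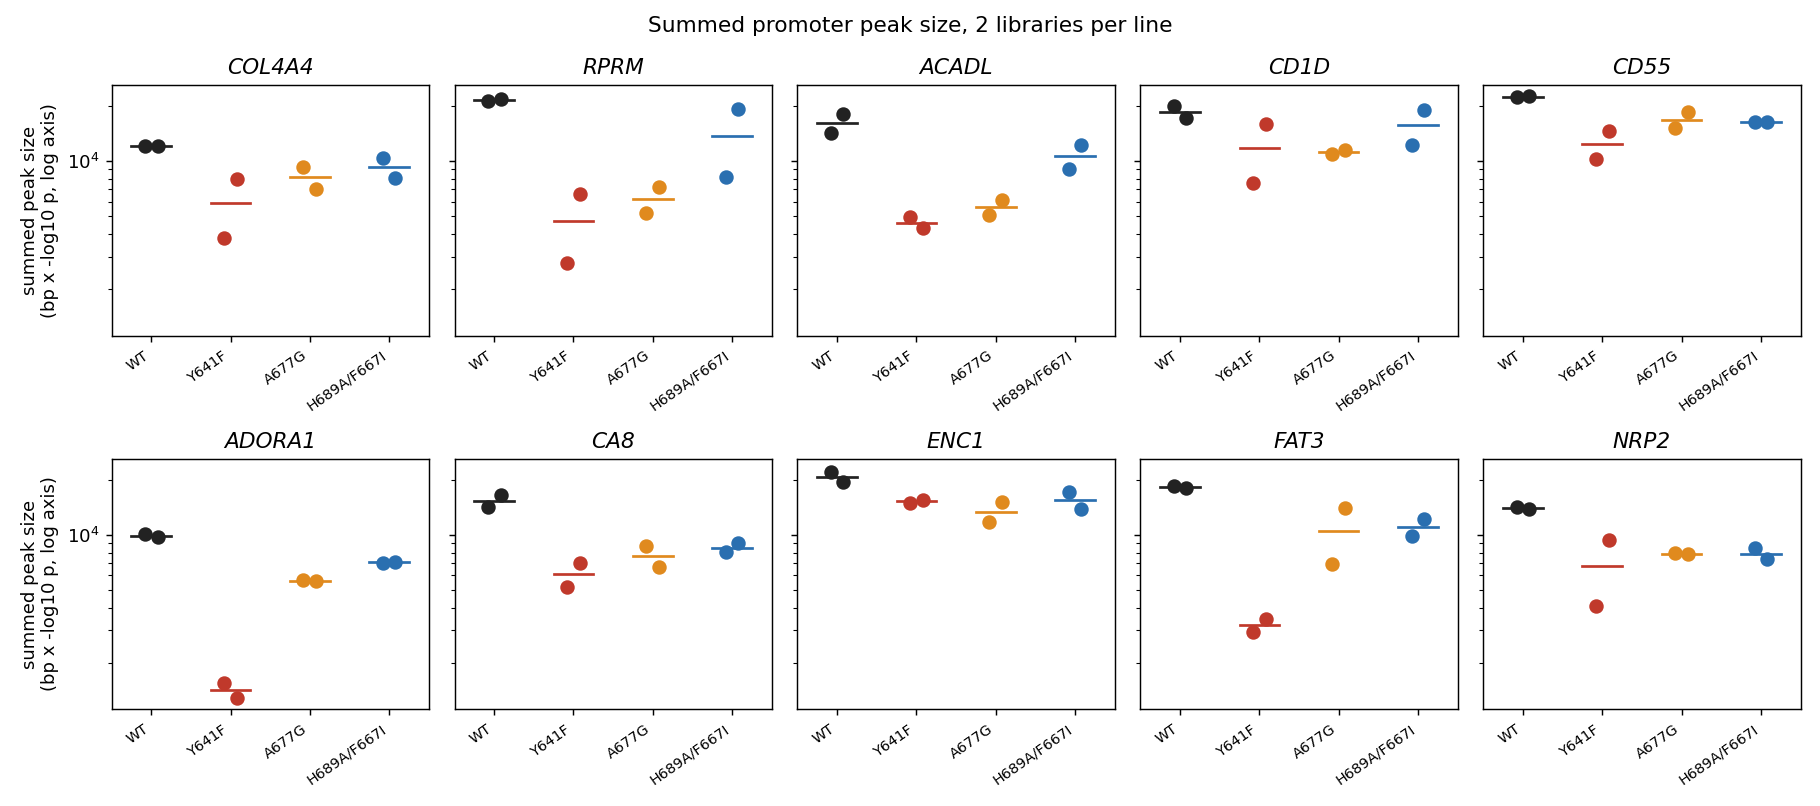
Summed promoter peak size (bp × −log10 p, log axis) of the 10 genes, one panel each, with 2 libraries per line as points and their mean as a bar. In Y641F all 10 genes lie below both WT libraries. ADORA1 is lowest there, at 1283 and 1544, and is also the lowest of the 10 in both WT libraries.

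Percentiles removed that shared pattern. Both Y641F libraries ranked below both WT libraries for 2 of the 10 genes, ADORA1 and CA8 (25.7% of all promoters), and above for 2, ACADL and CD1D (24.4%). In A677G the count was 1 below, ADORA1 (24.5%), and 2 above, ACADL and FAT3 (21.8%). In H689A/F667I it was 0 below (23.1%) and 0 above (20.8%). The median percentile difference from WT over the 10 genes was 0.21 in Y641F, 0.57 in A677G and −3.84 for H689A/F667I, beside −0.13, −0.39 and −0.35 over all genes. Without Y641F replicate 1, the remaining Y641F library ranked below WT for 4 of the 10 genes, RPRM, ADORA1, CA8 and FAT3, against 39.5% of all promoters.

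**Figure D2:**
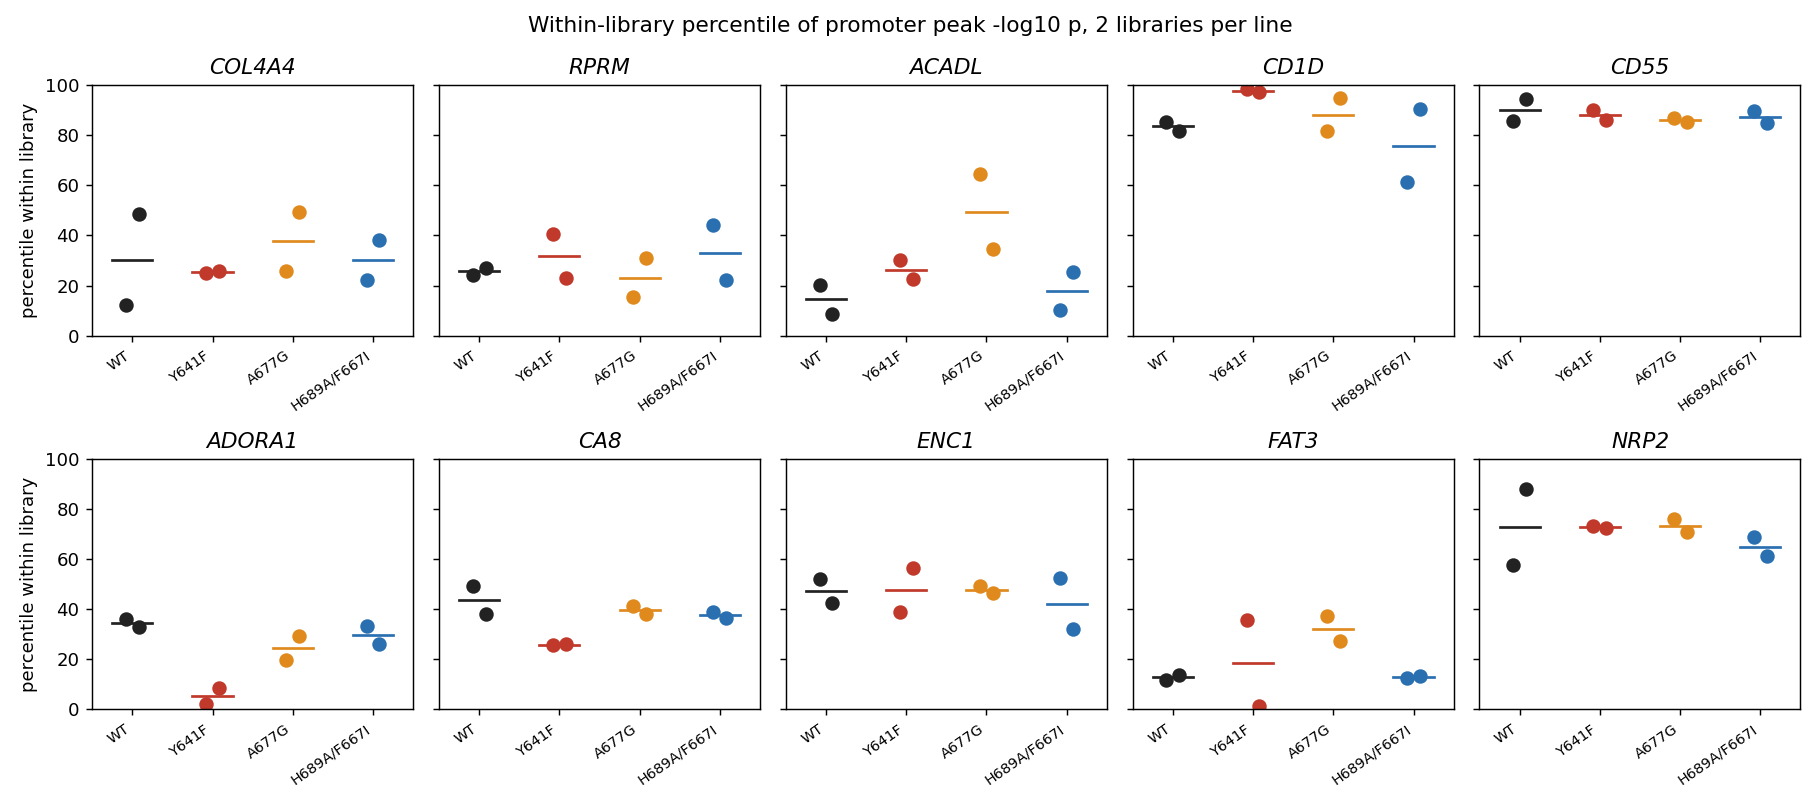
Within-library percentile of promoter peak strength (0 to 100) of the 10 genes, one panel each, with 2 libraries per line as points and their mean as a bar. ADORA1 lies at percentiles 2.26 and 8.66 in Y641F, while CD55 lies between 84.7 and 94.4 in every library.

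RPRM encodes Reprimo, a small membrane protein that takes part in cell cycle arrest downstream of p53. Its WT peaks were 2187 and 2235 bp wide and spanned the whole gene, from chr2:153476859-153479045 in replicate 1 to chr2:153476828-153479062 in replicate 2. The Y641F peaks were 409 and 1004 bp wide, the A677G peaks 850 and 889 bp, and the H689A/F667I peaks 878 and 2538 bp. All 4 GOF peaks and 1 of 2 LOF peaks thus reached from the start only part of the way into the gene, and the other LOF peak spanned the whole gene as in WT. In WT the summed size was 21538.8 ± 338.1 (SD, n = 2), and it was 4709 ± 2729 in Y641F, 6209 ± 1416 in A677G and 13722 ± 7789 for H689A/F667I. The strength was 9.74 in both WT libraries, 6.79 and 6.61 in Y641F, 6.13 and 8.11 in A677G, with 9.36 and 7.58 for H689A/F667I. Its percentile, at 24.4 and 27.1 in WT, differed by 5.92 ± 10.9 (SE) in Y641F and −2.57 ± 10.9 in A677G, with limma adjusted p of 0.813 and 0.951. When genes were ranked by summed size instead, RPRM differed from WT by −48.6 points in Y641F and −51.4 points in A677G, with limma adjusted p of 0.202 and 0.333, so the call did not pass there either.

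ACADL encodes long-chain acyl-CoA dehydrogenase of mitochondrial fatty acid oxidation. Its peak was 1540 and 2479 bp wide in WT, 811 and 652 bp in Y641F, 475 and 723 bp in A677G, with 1507 and 1553 bp for H689A/F667I. Both GOF lines thus had narrower peaks than either WT library, and the LOF line had 1 peak within the WT range and 1 just under it. The strength ran the other way in A677G, at 10.7 and 8.49 against 9.24 and 7.29 in WT, while Y641F had 6.09 and 6.58 and H689A/F667I had 6.02 and 7.88. The percentile was 20.4 and 8.64 in WT, 64.5 and 34.5 in A677G, 30.1 and 22.5 in Y641F, with 10.3 and 25.2 for H689A/F667I. The A677G difference was 35 ± 11.3 points (SE; unadjusted p 0.0102, limma adjusted p 0.305). Its sign depended on the measure ranked, since by peak width ACADL in A677G differed from WT by −72 points, and by summed size by −30.1 points, at limma adjusted p of 0.165 and 0.405. Strength is an average over the whole peak, so it can depend on how far the called peak extends. Whether width accounts for the A677G strength was not tested.

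CA8 encodes a carbonic anhydrase-related protein that lacks catalytic activity and binds the IP3 receptor. Its strength was 12.8 and 11 in WT, 5.8 and 6.85 in Y641F, 8.34 and 8.81 in A677G, with 8.84 and 8.95 for H689A/F667I. All 6 mutant libraries lay below WT. The percentile was 49.4 and 37.9 in WT and 25.7 and 26 in Y641F, a difference of −17.8 ± 10.1 points (SE; limma adjusted p 0.37). The other mutant lines overlapped WT in percentile, at 38 to 41.3 in A677G and 36.3 to 38.8 in H689A/F667I. CA8 was also the gene with the lowest LOF ratio of summed size, 0.556 of WT.

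ENC1 encodes a BTB-kelch protein that binds actin and is active in neural tissue. Its promoter peak was broad in every library, 1669 and 1693 bp in WT, 2237 and 1616 bp in Y641F, 1294 and 1564 bp in A677G, with 1670 and 1610 bp for H689A/F667I. It was the widest of the 10 promoter peaks in both Y641F libraries, and Y641F replicate 1 exceeded both WT libraries. Its strength was 13.1 and 11.5 in WT, against 6.7 and 9.61 in Y641F, 9.02 and 9.62 in A677G, with 10.3 and 8.56 for H689A/F667I. The percentile differed from WT by 0.46 ± 12.2 points (SE) in Y641F, by 0.50 in A677G and by −5.0 in H689A/F667I, with limma adjusted p of 0.99, 0.993 and 0.939.

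ADORA1 encodes an inhibitory G protein-coupled receptor for adenosine. It had the lowest summed peak size of the 10 genes in both Y641F libraries, and also in both WT and both H689A/F667I libraries. Its peak was 903 and 927 bp wide in WT, 391 and 239 bp in Y641F, 869 and 699 bp in A677G, with 843 and 897 bp for H689A/F667I. The strength was 11.1 and 10.4 in WT, 3.95 and 5.37 in Y641F, 6.48 and 7.96 in A677G, with 8.35 and 7.96 for H689A/F667I. All mutant libraries lay below WT, and both Y641F libraries lay below the other mutant libraries. The WT peaks began before the canonical start site at position 203127726 on chromosome 1, at 203127669 and 203127633. The gene itself begins farther upstream, at 203090654. The Y641F peaks began past the canonical start, at 203128027 and 203128212, as did the peak of A677G replicate 2, at 203127757. Both Y641F peaks covered a further annotated start at 203128306, as did the peaks of the other lines.

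The ADORA1 percentile was 35.9 and 32.9 in WT, 2.26 and 8.66 in Y641F, 19.9 and 29.2 in A677G, with 33.5 and 26.1 for H689A/F667I. The Y641F difference from WT was −29 ± 8.08 points (SE; unadjusted p 0.00436, limma adjusted p 0.105), and it did not pass. The difference between Y641F and A677G was −19 ± 8.08 points, with an unadjusted p of 0.0382 and a limma adjusted p of 0.404. Under quantile normalisation of the log2 fold the Y641F difference was −0.49 on the log2 scale and passed, at a limma adjusted p of 0.0427. The sign was negative in all 17 alternatives computed for it, and the limma adjusted p ranged from 0.0427 to 0.533. By summed size the ADORA1 rank differed from WT by −11.9 points in Y641F and by 4.84 points in H689A/F667I, neither past the test (limma adjusted p 0.289 and 0.831).

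NRP2 encodes neuropilin, a coreceptor for class 3 semaphorins and for VEGF family ligands. Its strength was 13.8 and 19.5 in WT, 9.78 and 11.5 in Y641F, 12.3 and 12.6 in A677G, with 12.4 and 11.6 for H689A/F667I. Every mutant library lay below both WT libraries, which themselves differed by more than the mutant libraries did. In percentile all 6 mutant libraries, at 61 to 75.8, fell between the WT values of 57.5 and 87.8. The differences from WT were −0.04, 0.63 and −7.79 points in Y641F, A677G and H689A/F667I, at limma adjusted p of 0.999, 0.987 and 0.864.

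CD1D encodes an antigen-presenting molecule that shows lipids to natural killer T cells. Its strongest peak did not lie at the canonical start at 158180895 but near an upstream start at 158178030 on chromosome 1, and this upstream peak was present in all 8 libraries. A second, weaker peak at the canonical start was called in 5 of 8 libraries: both WT libraries, Y641F replicate 1, A677G replicate 2 and H689A/F667I replicate 2. The upstream strength was 19.1 and 17.8 in WT, 19 and 20.3 in Y641F, 13.3 and 19.7 in A677G, with 11.3 and 17.7 for H689A/F667I. CD1D was the 1 gene of the 10 whose strength in Y641F overlapped WT, and its percentile there was 98.4 and 97.1 against 85.4 and 81.8 in WT. That difference of 14.2 ± 7.81 points (SE) did not pass (limma adjusted p 0.355). In A677G the percentile was 81.4 and 94.7, and in H689A/F667I it was 61.3 and 90.2. Against H689A/F667I the GOF lines differed by 17.1 ± 6.76 points (SE; unadjusted p 0.0282, limma adjusted p 0.496), and without H689A/F667I replicate 1 by 2.65 ± 4.99 points (limma adjusted p 0.925), so the difference rested on that library.

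CD55 encodes decay-accelerating factor, a membrane inhibitor of complement. It had the steadiest promoter of the 10 genes in rank by strength. Its percentiles were 85.7 and 94.4 in WT, 90.2 and 86.2 in Y641F, 87 and 85.1 in A677G, with 89.5 and 84.7 for H689A/F667I. Its width overlapped WT in all 3 mutant lines, with 1164 and 1006 bp in WT and 772 to 1181 bp in the others. Its strength was nonetheless lower, at 19.3 and 22.4 in WT against 13.2 and 14.4 in Y641F, 14.8 and 15.6 in A677G, with 17.2 and 15.8 for H689A/F667I. The percentile differences from WT were −1.91, −4.05 and −3.00 points, with a limma SE of 4.12 points. Ranked by width instead, CD55 lay above both WT libraries in each mutant line. The mean width percentile was 34.7 in WT, 55.7 in Y641F, 64.8 in A677G and 45.4 for H689A/F667I. By summed size it lay above WT in Y641F and A677G, at 80.5 and 85.9 against 75.3, and overlapped WT in H689A/F667I.

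COL4A4 encodes a type IV collagen chain of basement membranes, the glomerular one included. It lies head to head with COL4A3, another type IV collagen chain, and both genes were assigned the same promoter peak, so the values cannot be told apart between them. The width was 1305 and 984 bp in WT, 658 and 1172 bp in Y641F, 1319 and 710 bp in A677G, with 1425 and 890 bp for H689A/F667I, and every line overlapped WT. The strength was 8.09 and 12.3 in WT, 5.76 and 6.82 in Y641F, 6.99 and 9.91 in A677G, with 7.28 and 9.13 for H689A/F667I. The WT percentiles of 12.2 and 48.5 spanned most mutant values, and the Y641F difference was −5.01 ± 13.2 points (SE; limma adjusted p 0.872). WT replicate 1 alone had a further weak peak near a downstream start site of COL4A4.

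FAT3 encodes a giant atypical cadherin of the nervous system. Over its canonical start at 92224818 on chromosome 11, the WT peaks were 2398 and 2622 bp wide, the Y641F peaks 257 and 827 bp and the A677G peaks 1069 and 2421 bp. In H689A/F667I the site was called as separate peaks of 566 and 1079 bp in replicate 1 and as 1 peak of 2338 bp in replicate 2. Both Y641F peaks were shorter than either WT peak, and each other mutant line had 1 library near the WT width. The strength at the canonical start was 6.86 and 6.23 in WT, 6.43 and 4.19 in Y641F, 4.95 and 5.09 in A677G, and at most 6.23 and 4.56 in H689A/F667I. A narrow peak near a start site at 92844340 was stronger in 7 libraries, at 6.29 to 8.06, and was not called in Y641F replicate 2.

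The rank of FAT3 rested on that narrow peak in 7 libraries and on the canonical peak in Y641F replicate 2. Its percentile was 11.7 and 13.8 in WT, 35.6 and 1.41 in Y641F, 37.2 and 27.1 in A677G, with 12.7 and 13.2 for H689A/F667I. The A677G difference from WT was 19.4 ± 10.2 points (SE; limma adjusted p 0.476), and it was −0.03 points when only the canonical start was used. The Y641F difference was 5.73 points (limma adjusted p 0.806), and with the canonical start alone it was 13.9 points (limma adjusted p 0.444). By summed size the FAT3 rank in Y641F differed from WT by −44.9 points (unadjusted p 0.00919, limma adjusted p 0.16), which did not pass.

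**Figure D3:**
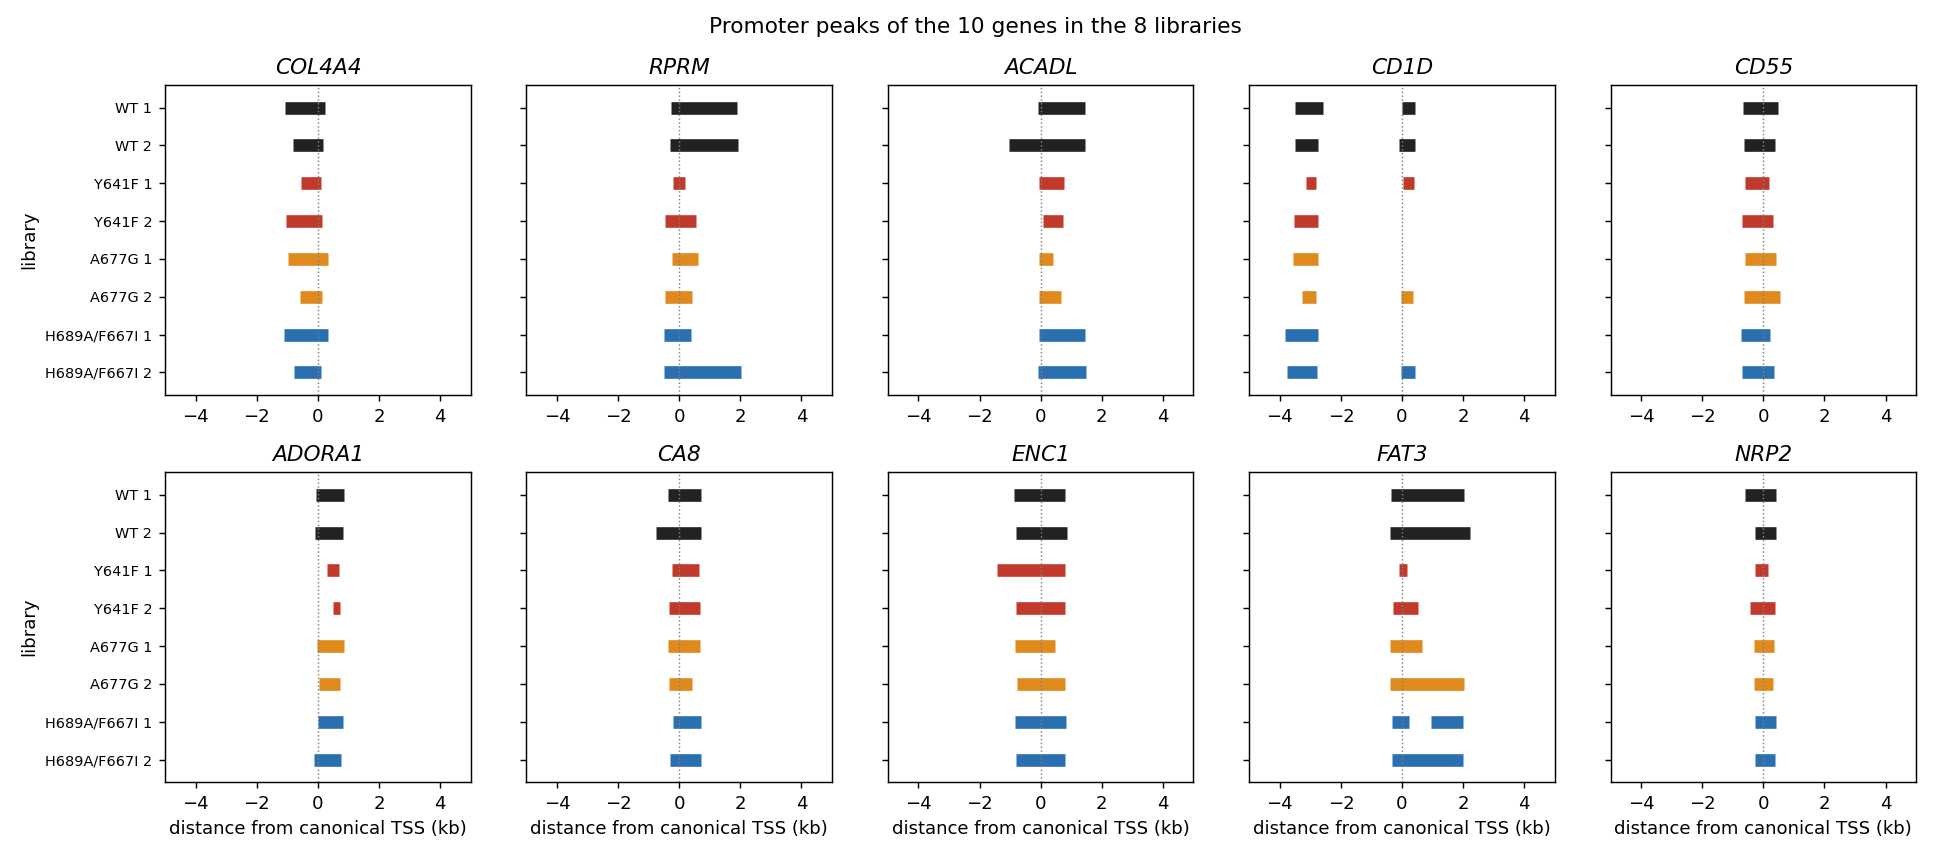
Called promoter peaks of the 10 genes in the 8 libraries, drawn to scale by distance from the canonical start site (kb, positive into the gene), with peaks beyond 5 kb not drawn. RPRM, ACADL and FAT3 have long WT peaks that reach into the gene. ADORA1 in Y641F has peaks of 391 and 239 bp downstream of the canonical start, over a further annotated start.

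Outside promoters, 51 open regions lay in or within 10 kb of start sites of 8 of the 10 genes, 41 in introns, 8 on exons and 2 in flanks, while RPRM and CD55 had 0. Each WT library had 34 of them open. The number was 7 and 14 in Y641F, 17 and 22 in A677G, with 23 and 27 for H689A/F667I, with means of 10.5 ± 4.95 (SD, n = 2), 19.5 ± 3.54 and 25 ± 2.83. No mutant library reached the WT number. Of 27 regions open in both WT libraries, 16 (59.3%) were open in neither Y641F library, against 46.2% of 19191 such regions in genes generally. For A677G the number was 7 (25.9%), against 27.5%, and for H689A/F667I it was 6 (22.2%), against 18.6%. When every library was reduced to its 26350 strongest peaks, 3 of 11 such regions were open in neither Y641F library (27.3%), against 22.5% in genes generally. With peaks of −log10 q of at least 5 the relation turned round, with 2 of 8 regions (25%) against 63.1% of 4639.

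FAT3 held 26 of the 51 regions, of which 14 and 18 were open in WT, 5 and 8 in Y641F, 9 and 14 in A677G, with 13 and 16 for H689A/F667I. Of these, 5 intronic regions were open in all 8 libraries, among them chr11:92838486-92839749, whose highest −log10 p was 19.3. COL4A4 had 5 and 4 regions open in WT and 0 in both Y641F libraries, while A677G had 2 and 1 and H689A/F667I had 2 and 3. Its intronic region chr2:227129925-227130649 had a peak in each WT library and in none of the 6 mutant libraries. An exonic region of ACADL, chr2:210195098-210195786, had the same pattern. The highest −log10 p was 6.93 for the COL4A4 region and 5.35 for the ACADL region. How common this pattern is among all genic regions open in WT was not tested.

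NRP2 had 6 and 5 regions open in WT, 1 and 2 in Y641F, 2 and 3 in A677G, with 3 and 3 for H689A/F667I. The 1 region of NRP2 open in all 8 libraries was a flank at chr2:205680013-205680971, upstream of the gene. In ADORA1 an intronic region at chr1:203117523-203118148, before the canonical start, was open in all 8 libraries, with a highest −log10 p of 15.1. It was thus called in both Y641F libraries, where the promoter peak of this gene was short. CA8, ENC1 and CD1D had 2, 2 and 1 regions, and 0 of these was open in Y641F replicate 1.

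**Figure D4:**
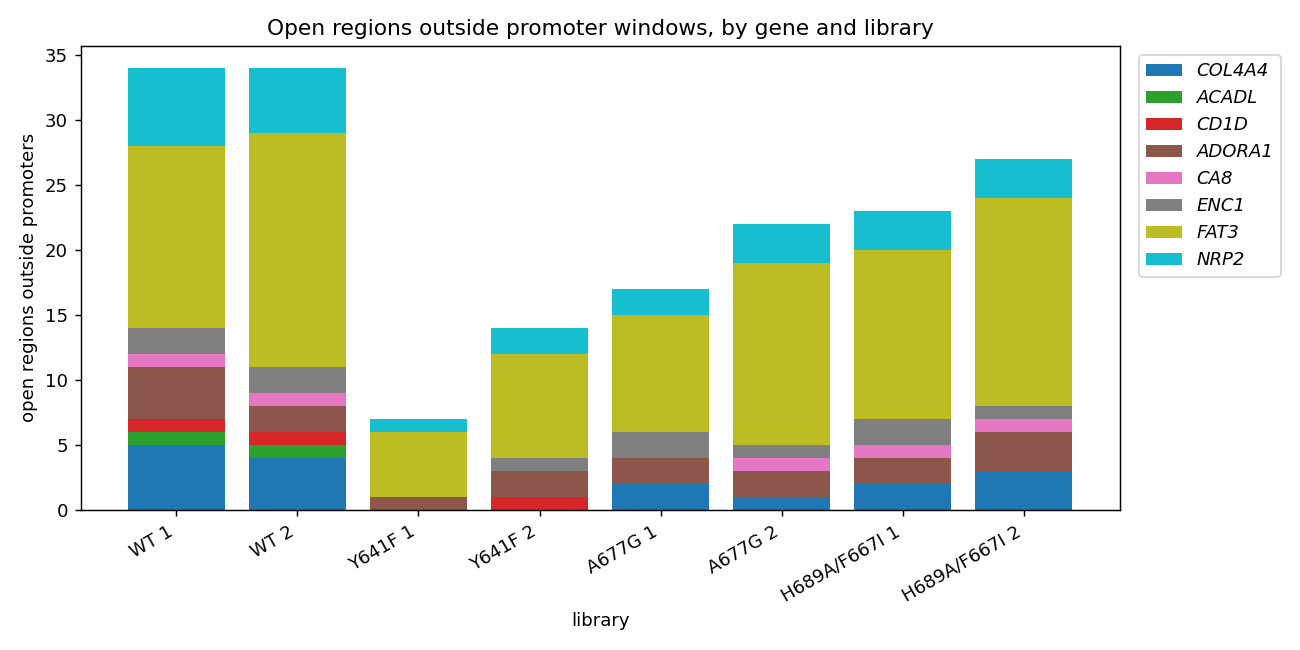
Number of open regions outside promoter windows in each library, stacked by gene; RPRM and CD55 have 0 and are not drawn. The WT libraries reach 34 each and the Y641F libraries 7 and 14, with FAT3 the largest share in every library.

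Related genes were followed in 10 lists, one for the relatives of each gene, with 64 genes in all. Of these, 34 had a promoter peak in every library, and limma called 0 of 34 lower and 0 of 34 higher in each mutant against WT. The median percentile difference over the 34 genes was 0.06 in Y641F, 4.67 in A677G and −1.04 for H689A/F667I. The relatives of CD1D, namely CD1A, CD1B, CD1C and CD1E, had 0 promoter peaks in every library, so CD1D was the 1 gene of its family with a called promoter peak in all of these libraries. All 5 other type IV collagen genes were open in all 8 libraries. Of 14 carbonic anhydrase genes, 4 were open in all 8 libraries. Their median Y641F difference was −18.7 points, with a lowest value of −38.9 points for CA5B. The shift was not particular to Y641F, since the median was −21.6 points for the A677G line and −21.1 points for the LOF line. Of 12 neuropilin, plexin A and class 3 semaphorin genes, 8 were open in all 8 libraries, with a median Y641F difference of 13.8 points.

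Among the other 98 genes of the study's shared GOF list, 87 had a promoter peak in every library. Limma called 0 of 87 in each mutant against WT, as for the 10 genes. Their summed size lay below both WT libraries for 85 of 87 in Y641F (97.7%), 81 in A677G (93.1%) and 78 for H689A/F667I (89.7%). Over all promoters the shares were 96.7%, 91.6% and 83.2%. The median ratios to WT were 0.425, 0.56 and 0.649, beside 0.438, 0.571 and 0.689 for the 10 genes. Over all promoters these ratios were 0.466, 0.603 and 0.69.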

How the data were processed

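ATAC-seq of 8 HEK293T libraries (4 lines, 2 each) was analysed from the authors' peak lists, and groups came from the sample titles. The authors trimmed reads (Trim Galore 0.6.5), aligned them to GRCh38/hg38 (BWA 0.7.17), removed duplicates and called broad peaks per library (MACS2 2.2.7.1). The deposited fold (a ratio over background), −log10 p and −log10 q are averages over each peak, and the deposited score was not used. Tn5 shifting, mitochondrial filtering and read depth are not given in the sources used here. Without reads, the study's count test could not be run.

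Peaks on chromosomes 1 to 22 and X were assigned to GENCODE 44 coding start sites (within 1 kb). Per-library percentiles were fitted with limma 3.58.1 (R 4.3.3) over 11407 genes, 5 contrasts, adjusted p under 0.05. The fit was tested on simulated data. Regions were peaks merged across libraries at 1 bp overlap. The values of all 10 genes are given, related genes are given as counts with at most a few named, and the 5 genes most alike to their median profile are named by Pearson correlation. The genes, lists and tests were chosen with earlier results of these data known. Alternatives changed the ranked measure, start sites, window, peak threshold, gene filter, replicate block and libraries.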

Additional observations from a re-analysis of the deposited data

Results flagged for a closer look

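One value stood out because lines moved to opposite sides of WT. Ranked by summed promoter peak size, ADORA1 lay at percentiles 4.86 and 0.54 in Y641F, below the WT values of 14.4 and 14.9, and at 20.7 and 18.3 in H689A/F667I, above them. The line means differed by 16.8 points. This difference between Y641F and H689A/F667I was not tested. Each line has 2 libraries, too few to look for a single library far from the rest of its group.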

How the results depend on the processing

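There were 513 recomputed differences of the 10 genes from WT (30 differences, up to 18 alternatives). Of these, 501 kept their side of the threshold without a counted change of sign, 1 passed newly and 11 changed sign. A change of sign was counted only where the main difference exceeded its standard error. Smaller differences changed sign uncounted, among them FAT3 and RPRM in Y641F. From 5.73 and 5.92 points they went to −76.3 and −59.2 by peak width, and to −44.9 and −48.6 by summed size. The count of genes lower in Y641F rose from 0 to 1, ADORA1, with quantile-normalised log2 fold, and stayed 0 elsewhere. By peak width the counted changes of sign were ACADL −46.9 in Y641F and −72 in A677G, CA8 8.01 in Y641F, and ADORA1 12.3 and FAT3 −15.6 in A677G. By summed size, an alternative chosen after seeing the data, they were ACADL −21.2 in Y641F and −30.1 in A677G, ADORA1 2.12 and FAT3 −6.41 in A677G. FAT3 in A677G was −0.032 with the canonical start and −0.054 with a 500 bp window. The narrow FAT3 peak near a second start site drops out there.

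Over all genes, the 94 calls for Y641F became 11 by fold, 26 by width, 208 by quantile-normalised fold, 59 with −log10 q of at least 5 and 39 by summed size. Leaving out 1 library gave 0 to 234 calls: 20 and 17 without WT replicates 1 and 2, 0 and 234 without Y641F replicates 1 and 2, 2 and 0 without A677G replicates 1 and 2, and 0 and 4 without H689A/F667I replicates 1 and 2; a line left with 1 library was assumed to vary like the others. For A677G the 0 calls became 9 by width, 2 at −log10 q of at least 5, 4 at equal peak number, 4 with a peak in at least 1 library, and 0 to 10 without a library (10 without WT replicate 1). For H689A/F667I they became 1, 6, 3 and 1, and 0 to 2 (2 without WT replicate 1). The cause was not tested. With −log10 q of at least 5, 3 of the 10 genes remained testable, and 9 at equal peak number or canonical start.

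With a replicate block, 4 genes were called for Y641F and 0 of the 10. Deviations in percentile from the line mean correlated at −0.03 to 0.04 over genes between equally numbered libraries, so the ranks showed no pairing by number. Percentiles remove library-wide shifts, and the titles do not say whether equally numbered libraries were prepared together, so pairing is not excluded.

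The share of WT regions of the 10 genes open in neither Y641F library was 25% with −log10 q of at least 5 (2 of 8; 63.1% over all genic regions) and 27.3% at equal peak number (22.5%). For H689A/F667I the latter was 9.09% (10.4%). Without 1 library, alternatives chosen after seeing the data, the shares ran from 59.3% to 74.1% in Y641F, 32.4% to 48.1% in A677G (48.1% without A677G replicate 2, 41.2% without WT replicate 1) and 29.6% to 32.4% in H689A/F667I. Over all genic regions these shares ran from 50.6% to 70.3%, 35.3% to 46.2% and 30% to 36.4%; the A677G values without A677G replicate 2 and without WT replicate 1 were 46.2% and 43.1%.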

Other observations

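Across the 8 libraries, the genes whose promoter percentile most resembled the median profile of the 10 genes were MZT2A, PAM16, AQP4, TMEM241 and GOLPH3L, with Pearson r of 0.981, 0.951, 0.951, 0.931 and 0.93. The median profile was 42.7 and 40.1 in WT, 37.3 and 25.8 in Y641F, 45.2 and 42.1 in A677G, with 41.4 and 34.2 for H689A/F667I, lowest in Y641F replicate 2. These are the highest values among 11407 genes over 8 points that share libraries, and are given as a description.

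Under −log10 q of at least 5, promoter peaks of the 10 genes were left for 10 and 9 genes in WT, 3 and 4 in Y641F, 7 and 10 in A677G, with 7 and 9 for H689A/F667I. Over all 11407 genes the shares were 92.4% and 90.9% in WT, 44.5% and 64% in Y641F, 65.8% and 74.8% in A677G, with 74.8% and 78.2% for H689A/F667I. The genes left in both Y641F libraries were CD1D, CD55 and NRP2. At equal peak number all 10 genes kept a promoter peak in 7 libraries, and FAT3 had none in Y641F replicate 2. Over all 11407 genes, 93.7% to 100% kept one, with 96.6% in Y641F replicate 2. The 100% belongs to Y641F replicate 1, whose 26350 peaks set the number, so it could lose none.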
